A study of Mus musculus with 12 samples.

Results

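Penk, Npy, Npy1r, Adcyap1r1 and Ngfr encode 2 neuropeptide precursors and 3 receptors of neuropeptides or neurotrophins, and they were followed across 4 genotypes of differentiating mouse embryonic fibroblasts. They are 5 of the 37991 gene identifiers in the count files. They were taken up because Penk was high in Ing1-KO and because Adcyap1r1 and Npy1r were lowest in the libraries labelled DKO, so those differences chose the genes and are described here without a test. Npy and Ngfr were not chosen by a stated value, and their fold changes were tested.

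Embryonic fibroblasts (MEFs) came from male embryos on embryonic day 15.5, from crosses of mice lacking Gadd45a with mice lacking Ing1, on a C57BL/6N background. Gadd45a and Ing1 encode nuclear stress-response and chromatin-binding proteins. The groups were Gadd45a-/-;Ing1-/- double mutants (DKO), Gadd45a single mutants (Gadd45a-KO), Ing1 single mutants (Ing1-KO) and wild type (WT), with 3 libraries each and 12 in all. All groups were grown for 4 passages and, once confluent, were induced for 48 h with 0.5 mM IBMX, which blocks cAMP breakdown, insulin at 10 µg/ml, the PPARγ agonist rosiglitazone at 2 µM and the glucocorticoid dexamethasone at 1 µM, and poly(A) RNA was taken after 6 days of adipocyte differentiation. There was no undifferentiated group, and the labels do not say whether the 3 libraries of a genotype were separate embryos or cultures, so p-values measure only the spread between these libraries.

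Neuropeptides are cut from larger precursors and act on G protein-coupled receptors of nearby cells. Penk gives rise to enkephalins, which act on opioid receptors. Npy encodes neuropeptide Y, a transmitter of sympathetic nerves, whose Y1 receptor Npy1r lowers cAMP and with it lipolysis in fat cells. Adcyap1r1 encodes PAC1, the receptor of the peptide PACAP, which raises cAMP. Ngfr encodes p75NTR, the low-affinity receptor shared by the neurotrophins, and marks neural crest cells, Schwann cells and some mesenchymal progenitors.

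Each library held between 42891627 and 52860419 reads on genes. Ing1 followed its labels, at 0.915 ± 0.234 CPM (counts per 1e6 TMM-scaled gene reads, mean ± SD, n = 3) in the libraries labelled DKO, 46.0 ± 1.47 CPM in those labelled Gadd45a-KO, 1.22 ± 0.326 CPM in Ing1-KO and 45.4 ± 2.26 CPM in WT. Gadd45a went against its labels. The libraries labelled DKO had 140.0 ± 1.90 CPM of it, those labelled Gadd45a-KO 143 ± 1.75 CPM, Ing1-KO 15.6 ± 2.55 CPM and WT 15.8 ± 1.82 CPM. Ing1-KO and WT are the other side of that contrast, so every direction below, Ing1-KO against WT included, rests on the labels. Fat-cell markers also differed between the groups: the summed level of 18 adipocyte markers ran from 456 to 536 CPM in the libraries labelled DKO, 1470 to 1980 CPM in those labelled Gadd45a-KO, 462 to 3890 CPM in Ing1-KO and 2170 to 4440 CPM in WT. In bulk RNA, fewer cells of a type and less RNA per cell cannot be told apart.

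Penk was the most abundant of the 5 genes per kilobase of exon in each of the 4 groups. It was read at 28.1, 16.6 and 49.2 CPM in the libraries labelled DKO, 13.5, 7.44 and 11.5 CPM in those labelled Gadd45a-KO, 419.9, 188 and 55.0 CPM in Ing1-KO, and 13.02, 8.21 and 25.9 CPM in WT. All 3 Ing1-KO libraries were above all 9 others. The mean of 221 ± 185 CPM in Ing1-KO, against 15.7 ± 9.14 CPM in WT, is a 14.1-fold ratio with a log2 fold change of 3.81 ± 0.744 (SE). This is the difference that chose the gene. Without Ing1-KO replicate 1 the log2 fold change was 2.95, and without WT replicate 3 it was 4.38.

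Penk was far lower with both labels than with the Ing1 label alone. It averaged 31.3 ± 16.5 CPM in the libraries labelled DKO, against 221 ± 185 CPM in Ing1-KO, a log2 difference of -2.82 ± 0.706 that was not tested because it uses the libraries of the choice. Against the libraries labelled Gadd45a-KO, those labelled DKO were all higher, with a log2 fold change of 1.53 ± 0.716 that did not pass edgeR's quasi-likelihood test (adjusted p = 0.27). Against WT the values overlapped, at a log2 fold change of 0.99 ± 0.699 (edgeR adjusted p = 0.395). The libraries labelled Gadd45a-KO averaged 10.8 ± 3.10 CPM and overlapped with WT, at -0.54 ± 0.722 on the log2 scale (edgeR adjusted p = 0.97), and without WT replicate 3 that value was 0.03.

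A830012C17Rik overlaps Penk in the reference annotation, the kit does not mark strand and the strand setting of the counting is not given in the sources used here, so reads of the pair may not be separable. Its own level was 0.101 CPM in the libraries labelled DKO, 0.0269 CPM in those labelled Gadd45a-KO, 0.338 CPM in Ing1-KO and 0.0490 CPM in WT. Those levels are a small share of the Penk level in each group.

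**Figure D1:**
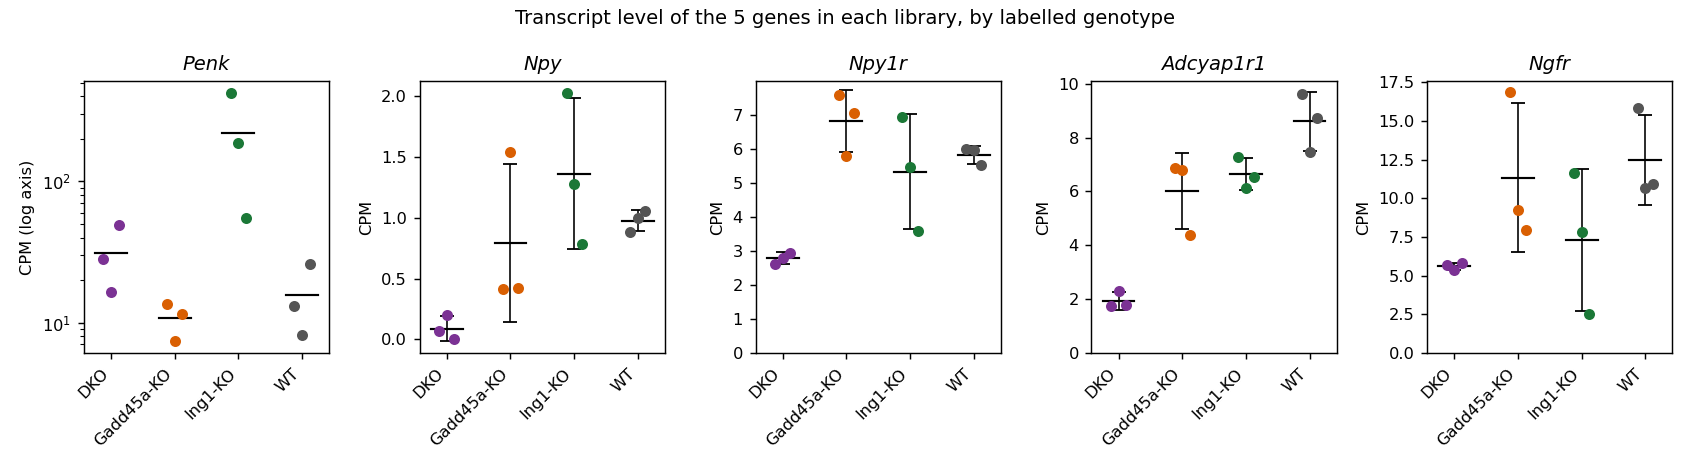
Level of each gene in CPM (vertical axis, logarithmic for Penk and linear for the other genes) in the 12 libraries by labelled genotype. Points are libraries, horizontal lines are means, and error bars are SD (left out for Penk). Penk is highest in the 3 Ing1-KO libraries, while Npy, Npy1r and Adcyap1r1 are lowest in the 3 libraries labelled DKO.

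In Npy, Npy1r and Adcyap1r1, all 3 libraries labelled DKO lay below the other 9. That pattern chose Npy1r and Adcyap1r1, and Npy passed the filter on low counts only through the other genotypes, so it is no result about them. The share of all genes with that pattern was not counted, while 19.7% had all libraries labelled DKO below all WT libraries. The promoter windows of the 3 genes are shown because they share the pattern. The windows are RefSeq's, on GRCm38.p6, from 250 bases before to 50 bases after the transcription start, on the + strand, and capitals mark an AP-1 site (TGAGTCA or TGACTCA).
Npy, chr6:49822460-49822759: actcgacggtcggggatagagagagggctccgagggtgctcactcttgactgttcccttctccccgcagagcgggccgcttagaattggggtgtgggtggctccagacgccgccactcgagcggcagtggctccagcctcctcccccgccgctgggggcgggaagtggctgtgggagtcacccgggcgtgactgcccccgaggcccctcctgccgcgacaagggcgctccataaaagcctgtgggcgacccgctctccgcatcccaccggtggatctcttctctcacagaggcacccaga
Npy1r, chr8:66697172-66697471: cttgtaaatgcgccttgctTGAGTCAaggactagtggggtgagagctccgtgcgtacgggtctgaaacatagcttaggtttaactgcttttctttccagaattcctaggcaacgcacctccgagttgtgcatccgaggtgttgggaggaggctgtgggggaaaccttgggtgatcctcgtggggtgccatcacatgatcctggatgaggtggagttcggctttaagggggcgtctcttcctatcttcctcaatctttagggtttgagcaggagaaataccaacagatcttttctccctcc
Adcyap1r1, chr6:55451728-55452027: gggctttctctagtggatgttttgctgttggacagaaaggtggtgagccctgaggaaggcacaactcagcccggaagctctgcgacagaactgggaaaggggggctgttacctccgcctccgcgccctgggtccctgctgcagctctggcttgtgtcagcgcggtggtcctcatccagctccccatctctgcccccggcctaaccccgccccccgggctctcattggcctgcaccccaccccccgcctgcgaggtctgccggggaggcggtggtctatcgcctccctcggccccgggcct

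These 3 windows and that of Ngfr were searched on both strands for 8 short motifs. Penk had no window in the set used and was not searched. Among the motifs were those that CREB, the factor activated by cAMP, and AP-1 are known to bind. None of the 4 windows held the cAMP response element TGACGTCA, found in 1.79% of 32841 mouse promoter windows of that length. None held the shorter TGACG either, which was found in 20.8% and is contained in the full element. Npy1r alone held an AP-1 site, 1 match starting at base 20 of its window, and 5.2% of all windows held one. A CCAAT box (CCAAT) stood once in the Npy and once in the Adcyap1r1 window, against 37.4% of all windows, and a GC box (GGGCGG) once in each of these 2 and 4 times in that of Ngfr, against 35.7%. A TATA box (TATAAA, 13.6% of all windows), the E-box CACGTG (7.15%) and AAAGGTCA, bound by Nr4a factors (1.51%), had no match in the 4 windows. Npy and Adcyap1r1 windows were 68.0% and 67.3% G or C, with 24 and 17 CpG sites, while the Npy1r window was 51.7% G or C with 10 CpG sites. The median window was 52.7% G or C with 7 CpG sites. The windows of Npy and Adcyap1r1 were thus alike in their share of G or C and in the number of matches to each motif. That of Npy1r differed from both. A match is a description of the letters and not a binding site.

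Npy, the ligand, was rare everywhere and close to absent in the libraries labelled DKO. These 3 libraries held 3, 9 and 0 reads, or 0.0704, 0.199 and 0 CPM, where a count of 0 allows up to 0.0619 CPM (3 reads) for counting error alone. The libraries labelled Gadd45a-KO were at 0.414, 1.54 and 0.424 CPM, Ing1-KO at 2.03, 1.28 and 0.788 CPM, and WT at 0.881, 0.997 and 1.06 CPM. All 3 libraries labelled DKO lay below all 9 others. Npy passed the filter on low counts only through the other genotypes, which by itself favours a lower level in the libraries labelled DKO, so its adjusted p-values in that fit are no support for a lower level there. Those of a fit of every gene with at least 1 read are given beside them.

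Npy averaged 0.0897 ± 0.101 CPM in the libraries labelled DKO and 0.977 ± 0.0887 CPM in WT, a log2 fold change of -3.43 ± 0.819 (edgeR adjusted p = 0.0244 after the filter and 0.0484 without it). Against Ing1-KO, where the mean was 1.36 ± 0.623 CPM, the log2 fold change was -3.91 ± 0.794 (edgeR adjusted p = 0.022 after the filter and 0.0334 without it). Against the libraries labelled Gadd45a-KO, at 0.793 ± 0.647 CPM, the log2 fold change of -3.13 ± 0.835 missed the threshold (edgeR adjusted p = 0.0837 after the filter and 0.153 without it). Neither single label moved Npy past the test against WT: the log2 fold change was -0.30 ± 0.581 with the Gadd45a-KO label (edgeR adjusted p = 0.978) and 0.48 ± 0.557 in Ing1-KO (edgeR adjusted p = 0.692). The interaction, which asks whether the libraries labelled DKO depart from the sum of both single-label effects, was -3.60 ± 1.02 on the log2 scale (edgeR adjusted p = 0.254).

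The values of Npy rest on few reads and on single libraries. Against WT the threshold was missed in 4 of 12 fits, each with the filter and without 1 library, with adjusted p = 0.0938 without DKO replicate 1, 0.0555 without DKO replicate 3, 0.0687 without WT replicate 3 and 0.0756 when WT replicate 1 was dropped, while the log2 fold change stayed between -4.78 and -2.82. Against Ing1-KO it was missed without DKO replicate 1 (adjusted p = 0.0912), DKO replicate 2 (0.0503), Ing1-KO replicate 1 (0.0647) and Ing1-KO replicate 2 (0.0773), with log2 fold changes between -5.26 and -3.30.

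Npy1r, the Y1 receptor, had similar means in 3 groups and a lower one in the libraries labelled DKO. It was read at 2.61, 2.80 and 2.95 CPM there, 7.59, 5.80 and 7.05 CPM in those labelled Gadd45a-KO, 6.94, 5.46 and 3.58 CPM in Ing1-KO, and 6.00, 5.96 and 5.51 CPM in WT. The libraries labelled DKO lay below all others, and Ing1-KO replicate 3 was the nearest. The mean of 2.79 ± 0.173 CPM, against 5.82 ± 0.269 CPM in WT, is a log2 fold change of -1.06 ± 0.201, and the differences were -1.29 ± 0.200 from the libraries labelled Gadd45a-KO and -0.93 ± 0.201 from Ing1-KO. These values chose the gene and carry no test. The single labels, which did not choose it, gave log2 fold changes against WT of 0.23 ± 0.191 (Gadd45a-KO, edgeR adjusted p = 0.935) and -0.13 ± 0.192 (Ing1-KO, edgeR adjusted p = 0.764), and the second was 0.09 without Ing1-KO replicate 3.

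Adcyap1r1, the PACAP receptor, was lowest in the libraries labelled DKO and highest in WT, with both single labels between. It was read at 1.74, 2.32 and 1.77 CPM in the libraries labelled DKO, 6.87, 6.81 and 4.37 CPM in those labelled Gadd45a-KO, 7.30, 6.11 and 6.54 CPM in Ing1-KO, and 9.62, 7.46 and 8.74 CPM in WT. No library of a mutant label reached the lowest WT library, and none labelled DKO reached the lowest of the single labels. The mean of 1.94 ± 0.326 CPM, against 8.61 ± 1.09 CPM in WT, is a log2 fold change of -2.15 ± 0.189. The libraries labelled DKO differed by -1.63 ± 0.189 from those labelled Gadd45a-KO and by -1.77 ± 0.189 from Ing1-KO, again as a description of what chose the gene.

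The smaller steps of Adcyap1r1 under the single labels were tested and did not pass. The log2 fold change was -0.51 ± 0.173 with the Gadd45a-KO label, where 6.02 ± 1.43 CPM stood against 8.61 ± 1.09 CPM in WT (edgeR adjusted p = 0.897, unadjusted p = 0.0123 across the fit of all genes). It was -0.37 ± 0.172 in Ing1-KO, at 6.65 ± 0.601 CPM (edgeR adjusted p = 0.249). Of all 16163 genes tested, 7.61% had libraries labelled Gadd45a-KO all below WT and 12.5% had Ing1-KO all below WT, so groups that do not overlap were common.

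Adcyap1r1 and Npy lie within 20 Mb of Gadd45a on chromosome 6 in the reference annotation, at 11.5 Mb and 17.2 Mb. Npy1r lies on chromosome 8 with Ing1, 55.1 Mb away, while Penk is on chromosome 4 and Ngfr on chromosome 11. Of the 2 members on the chromosome of Gadd45a, neither passed the test with the Gadd45a-KO label. As only 0.0124% of all genes passed it, this says little about the 2 members. The part of their position in these levels was not tested.

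Ngfr, the neurotrophin receptor, spread widely inside 3 of the 4 groups. It was read at 5.70, 5.365 and 5.79 CPM in the libraries labelled DKO, 16.9, 9.22 and 7.94 CPM in those labelled Gadd45a-KO, 11.6, 7.83 and 2.52 CPM in Ing1-KO, and 15.9, 10.7 and 10.95 CPM in WT. The libraries labelled DKO lay close together and below all WT libraries and all those labelled Gadd45a-KO, but the lowest library of all was Ing1-KO replicate 3. The mean was 5.62 ± 0.226 CPM in the libraries labelled DKO, against 12.5 ± 2.92 CPM in WT, with a log2 fold change of -1.15 ± 0.463 that did not pass (edgeR adjusted p = 0.132). It passed when only these 6 libraries were fitted (adjusted p = 0.00231) and when Ing1-KO replicate 3 was left out (adjusted p = 0.0328).

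The other differences of Ngfr did not pass either. The log2 fold change was -1.02 ± 0.462 between the libraries labelled DKO and those labelled Gadd45a-KO (edgeR adjusted p = 0.258), -0.38 ± 0.467 between those labelled DKO and Ing1-KO (0.609), -0.14 ± 0.445 between those labelled Gadd45a-KO and WT (0.983) and -0.77 ± 0.454 between Ing1-KO and WT (0.38). The interaction was -0.24 ± 0.645 (edgeR adjusted p = 0.894). Without Ing1-KO replicate 1 the difference between DKO and Ing1-KO labels was 0.13, and without WT replicate 1 that between Gadd45a-KO and WT was 0.07.

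**Figure D2:**
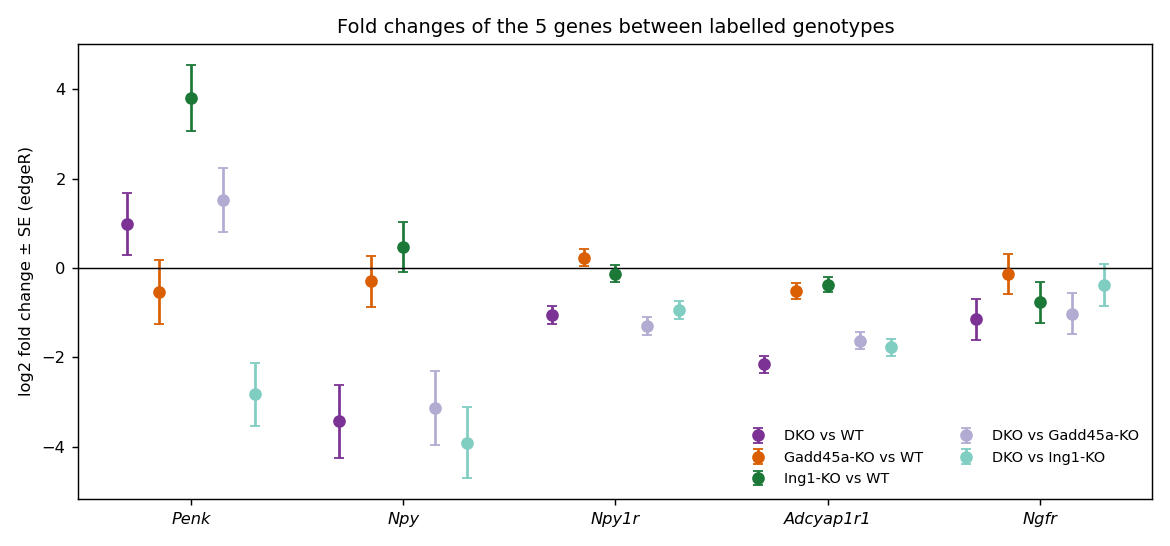
Log2 fold changes with their standard errors from edgeR (vertical axis) for the 5 genes in 5 comparisons. Npy lies at -3.43 and Adcyap1r1 at -2.15 in the libraries labelled DKO against WT, and Penk at 3.81 in Ing1-KO against WT.

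The tests that the choice of the genes allows were read against all genes, with Npy left out of the counts for the libraries labelled DKO because of the filter. With the Gadd45a-KO label against WT, 0 of 5 members were called by edgeR, where 0.0124% of all genes tested were (854 had an unadjusted p under 0.05, and DESeq2 called 7). In Ing1-KO against WT, 0 of the 4 members that could be tested were called, against 4.15% of all genes (2.31% higher and 1.84% lower), and 3335 genes had an unadjusted p under 0.05. In the libraries labelled DKO, neither Penk nor Ngfr was called against WT, where 13% of all genes were (7.11% lower and 5.88% higher), and Ngfr was not called against Ing1-KO, where 12% were (6.02% lower). Against the libraries labelled Gadd45a-KO neither Penk nor Ngfr was called, and 1.19% of all genes were. For the interaction Ngfr was not called, and 0% of all genes were called by edgeR, with 2195 genes at an unadjusted p under 0.05 and 173 called by DESeq2.

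Groups that do not overlap were frequent in the same way. Below all WT libraries in the libraries labelled DKO stood Ngfr beside the 2 receptors chosen for it, and so did 19.7% of all genes. Ngfr was also below all libraries labelled Gadd45a-KO, as were 13.6% of genes, while Penk was above them, as were 12.4%. Npy was below all libraries of both these groups and below all Ing1-KO libraries, as were 16.8% of genes for Ing1-KO. It passed the filter only through those genotypes, so this is no support for a lower level with the DKO label. Penk was above WT in Ing1-KO, as were 14.2%, which is the difference that chose it.

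Per kilobase of exon, the order of the 5 genes changed with the genotype. In WT, Penk stood at 9.61 CPM per kilobase, Ngfr at 3.63, Npy at 1.73, Npy1r at 1.69 and Adcyap1r1 at 1.30. In the libraries labelled DKO the order was Penk at 19.2, Ngfr at 1.63, Npy1r at 0.807, Adcyap1r1 at 0.294 and Npy at 0.159 CPM per kilobase. Npy, the short transcript, was thus level with its receptor per kilobase in WT and lowest of the 5 in the libraries labelled DKO. In Ing1-KO Penk stood at 135 CPM per kilobase, with Npy at 2.41, Ngfr at 2.13, Npy1r at 1.54 and Adcyap1r1 at 1.01.

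**Figure D3:**
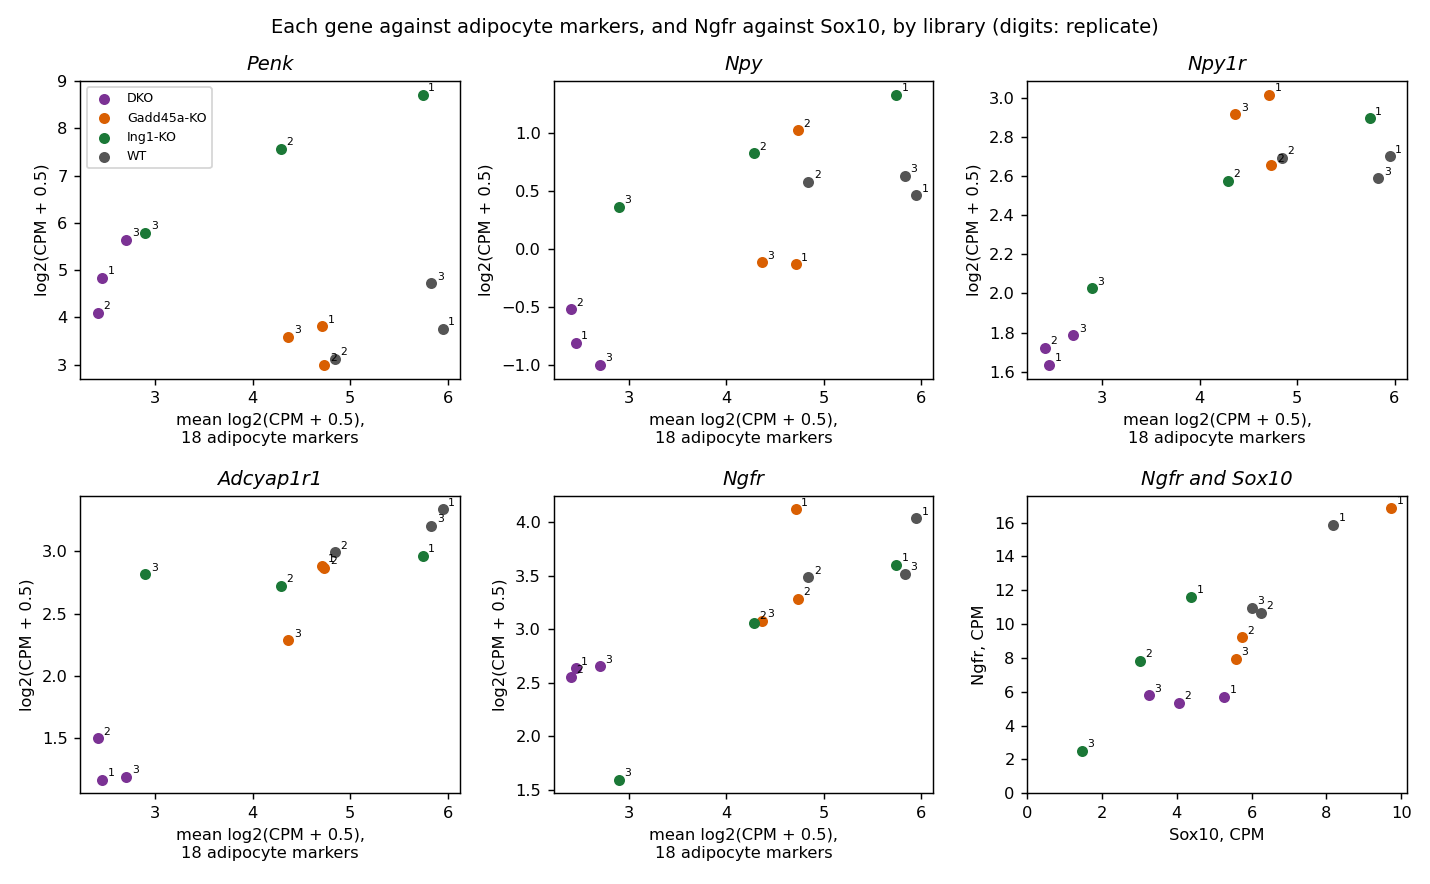
In 5 panels, log2(CPM + 0.5) of each gene (vertical axis) against the mean log2(CPM + 0.5) of 18 adipocyte markers (horizontal axis) by library; in the sixth, Ngfr against Sox10, both in CPM. Points are libraries coloured by labelled genotype, and digits are replicate numbers. The libraries labelled DKO sit between 2.41 and 2.71 on the adipocyte axis, and Ing1-KO replicate 3 at 2.90 is the nearest.

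Levels of 4 of the 5 genes moved with the adipocyte markers inside the Ing1-KO group. The mean log2(CPM + 0.5) of those markers was 5.75, 4.29 and 2.90 in Ing1-KO replicates 1, 2 and 3, and Penk, Npy, Npy1r and Ngfr were each highest in replicate 1 and lowest in replicate 3. Adcyap1r1 was not, at 7.30, 6.11 and 6.54 CPM. In WT the markers stood at 5.95, 4.84 and 5.83, in the libraries labelled Gadd45a-KO at 4.71, 4.74 and 4.37, and in those labelled DKO at 2.46, 2.41 and 2.71. Of the 18 markers, 15 fell in the libraries labelled DKO against WT (median log2 fold change -3.58), where 7.11% of all genes fell. Among the 15 were Fabp4, a fatty acid carrier, and Adipoq, the adipokine adiponectin, at 3.99 ± 1.51 CPM against 128 ± 51.8 CPM. DKO replicate 3 and Ing1-KO replicate 3 had a near equal marker level. DKO replicate 3 held 49.2 CPM of Penk, 0 CPM of Npy, 2.95 CPM of Npy1r, 1.77 CPM of Adcyap1r1 and 5.79 CPM of Ngfr, and Ing1-KO replicate 3 held 55.0 CPM of Penk, 0.788 CPM of Npy, 3.58 CPM of Npy1r, 6.54 CPM of Adcyap1r1 and 2.52 CPM of Ngfr. In this pair of libraries Npy and Adcyap1r1 were far apart, Penk and Npy1r were closer together, and Ngfr was higher in DKO replicate 3. As a description, each gene's log2(CPM + 0.5) was correlated with the marker mean over the 12 libraries. With genotype means removed, Pearson r was 0.85 for Penk, 0.846 for Ngfr, 0.785 for Npy1r, 0.528 for Npy and 0.377 for Adcyap1r1. The marker mean spread most inside Ing1-KO, so these values rest mainly on its 3 libraries. With genotype means kept, Pearson r was 0.00718 for Penk, 0.812 for Ngfr, 0.863 for Npy1r, 0.752 for Npy and 0.858 for Adcyap1r1. The mean of the macrophage and leukocyte markers also went with these genes, in the other direction. With genotype means kept, r was -0.04 for Penk, -0.648 for Ngfr, -0.795 for Npy1r, -0.513 for Npy and -0.8 for Adcyap1r1. With them removed, it was -0.264, -0.592, -0.437, 0.375 and -0.363 in the same order. The part of fat-cell or leukocyte content in these levels was not tested.

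Ngfr had its highest and lowest library in common with some markers of Schwann and neural crest cells, in which it is known to be high, and not with others. Sox10, the defining transcription factor of those cells and picked from the list after its values were seen, was read at 5.26, 4.06 and 3.26 CPM in the libraries labelled DKO, 9.73, 5.74 and 5.58 CPM in those labelled Gadd45a-KO, 4.39, 3.01 and 1.46 CPM in Ing1-KO, and 8.18, 6.24 and 6.01 CPM in WT. The highest library of both genes was Gadd45a-KO replicate 1 and the lowest Ing1-KO replicate 3, as in Erbb3, Foxd3 and Cdh19, and not in 7 of the 12 listed markers. Within the libraries labelled DKO, Ngfr did not follow Sox10. Mbp, a myelin protein, was at 16.5 ± 0.875 CPM in the libraries labelled DKO and 12.7 ± 0.204 CPM in WT. Of the 12 listed markers 11 were tested, and 1 (S100b) fell in the libraries labelled DKO against WT while 0 were called in Ing1-KO against WT, where 9 had a negative value and the median was -0.81. Between the libraries labelled DKO and Ing1-KO, 1 (Egr2) was called higher. Their summed level, most of it Pmp22, ran from 271 to 302 CPM in the libraries labelled DKO, 288 to 306 CPM in those labelled Gadd45a-KO, 256 to 323 CPM in Ing1-KO and 291 to 313 CPM in WT. Over all genes, 7.11% fell in the libraries labelled DKO against WT and 4.15% were called in Ing1-KO against WT. Between the libraries labelled DKO and Ing1-KO, 12% of all genes were called. The part of Schwann and neural crest cells in the Ngfr level was not tested.

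Some markers of neurons and of sympathetic or chromaffin cells, the usual sources of Npy and enkephalins, were near 0 and others were not. Th, the first enzyme of catecholamine synthesis, had 6 reads over the 12 libraries, and Rbfox3, the neuronal nuclear antigen, had 4. The 12 neuron markers summed to between 122 and 136 CPM in the libraries labelled DKO and 127 to 134 CPM in WT, most of it from Tubb3 and Map2, which other cells also express, and 1 of 8 tested (Map2) rose in that comparison. The sympathetic and chromaffin markers summed to between 6.58 and 9.32 CPM in the libraries labelled DKO, 7.19 to 8.27 CPM in those labelled Gadd45a-KO, 6.86 to 7.85 CPM in Ing1-KO and 6.89 to 7.30 CPM in WT, with Slc18a2, a vesicle transporter of amines, and the transcription factor Hand2 at the highest levels. Of the 4 tested, 1 (Ddc, an enzyme of dopamine synthesis) rose both in the libraries labelled DKO and in Ing1-KO against WT. Markers of macrophages and leukocytes summed to between 8170.0 and 8680.0 CPM in the libraries labelled DKO, 2330.0 to 6800.0 CPM in those labelled Gadd45a-KO, 4370.0 to 5140.0 CPM in Ing1-KO and 4370.0 to 5020.0 CPM in WT, and 8 of 18 rose in the libraries labelled DKO against WT. In the libraries labelled DKO against WT, 2 of 8 tested endothelial markers rose and 1 fell, 3 of 12 pericyte or smooth muscle markers rose, and 4 of 12 cartilage and bone markers rose and 1 fell. In Ing1-KO against WT, the comparison that chose Penk, 4 of 12 cartilage and bone markers rose (Col10a1, Acan, Comp and Col11a1) and 0 fell, and 1 endothelial marker rose. The cartilage and bone markers summed to between 788 and 990.0 CPM in the libraries labelled DKO, 569 to 738 CPM in those labelled Gadd45a-KO, 839 to 1060.0 CPM in Ing1-KO and 562 to 625 CPM in WT. As a description, the mean log2(CPM + 0.5) of these markers and that of Penk had a Pearson r of 0.646 over the 12 libraries, which share the genotype, and of -0.0448 with genotype means removed. Fibroblast markers summed to between 60900.0 and 66300.0 CPM in the libraries labelled DKO and 65500.0 to 69700.0 CPM in WT, with 2 of 12 lower there and 2 in Ing1-KO against WT. Over all genes, 5.88% rose and 7.11% fell in the libraries labelled DKO against WT, and 2.31% rose and 1.84% fell in Ing1-KO against WT. The part of these cell types in the members' levels was not tested.

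The peptide systems around the members were read next, from lists written by role. Their 213 genes, without the members, include 145 that could be tested. Of these, 9 rose and 26 fell in the libraries labelled DKO against WT, or 24.1% where 13% of all genes were called, with a median log2 fold change of -0.10 against -0.00 over all genes. In Ing1-KO against WT 6 rose and 6 fell (8.28% against 4.15%), and with the Gadd45a-KO label 0 were called. The 26 lower with the DKO label include Calca, Mc5r and Mc2r, and the 6 lower in Ing1-KO include Gfra3. Each of these passed the filter on low counts only through other genotypes, so its call is no support for a lower level. The count of 35 in the libraries labelled DKO dropped to 11 when DKO replicate 1 was left out, 20 for DKO replicate 2, 10 for WT replicate 1 and 19 for WT replicate 3, and that of 12 in Ing1-KO was 1 when Ing1-KO replicate 2 was dropped, 4 for WT replicate 1, 2 for WT replicate 2 and 3 for WT replicate 3. Of 63 calls on genes named by the rule for naming genes, 10 were kept whichever library was dropped (12 fits).

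**Figure D4:**
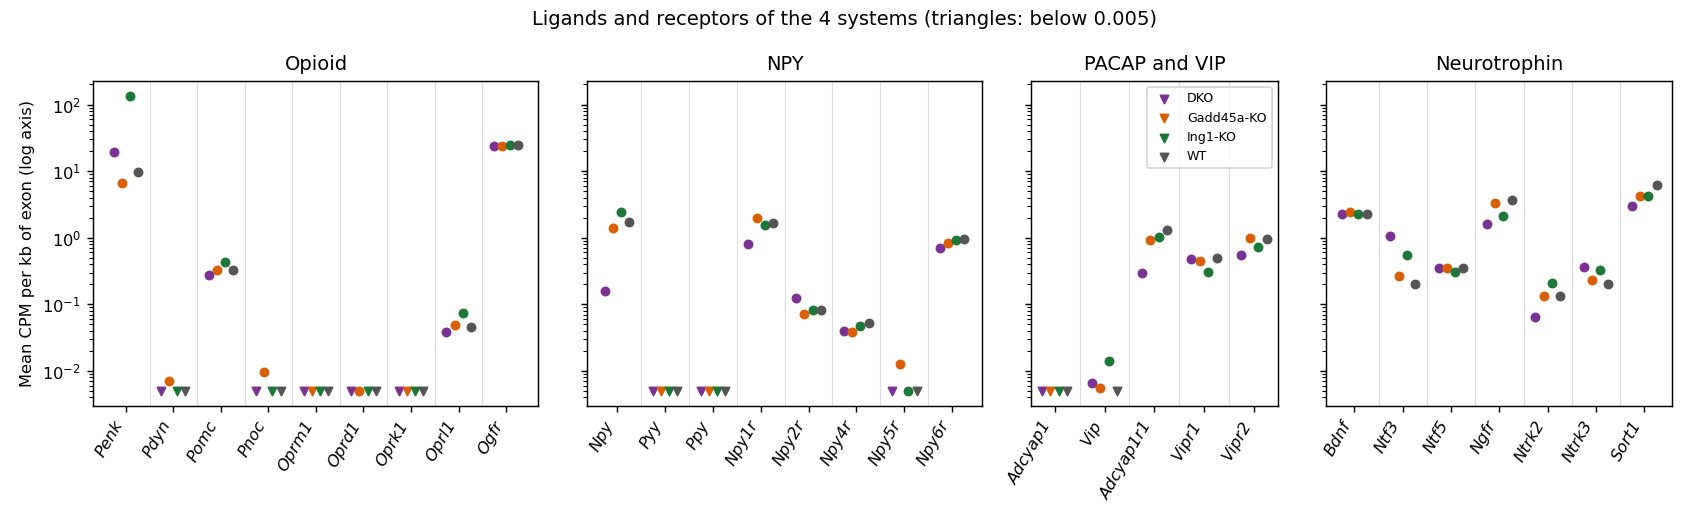
Mean level in CPM per kilobase of exon (vertical axis, logarithmic) of ligands and receptors of the opioid, neuropeptide Y, PACAP and neurotrophin systems in the 4 labelled genotypes. Each point is the mean of 3 libraries and triangles mark means below 0.005. Oprm1, Oprd1 and Oprk1 lie at or below the floor in every genotype while Penk lies at 6.62 or above, and Adcyap1 lies below it while Adcyap1r1 does not.

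In the opioid system, Penk was transcribed almost without its classical receptors. Oprm1, the mu receptor, had 0 reads over the 12 libraries, Oprd1, the delta receptor and main enkephalin target, had 5, and Oprk1, the kappa receptor, had 4. Of the other precursors, Pdyn had 3 reads and Pnoc 4, and Pomc was at 0.363 CPM in the libraries labelled DKO, 0.571 CPM in Ing1-KO and 0.438 CPM in WT. Ogfr, a nuclear-membrane receptor that binds an enkephalin and is unrelated to the G protein-coupled ones, was by contrast abundant, at 61.5 ± 1.10 CPM in the libraries labelled DKO, 62.0 ± 2.01 CPM in those labelled Gadd45a-KO, 64.2 ± 5.28 CPM in Ing1-KO and 63.1 ± 1.08 CPM in WT. Of the 4 tested genes 1 rose in the libraries labelled DKO against WT, the Ogfr relative Ogfrl1, at 23.8 ± 2.51 CPM against 15.5 ± 1.52 CPM (log2 fold change 0.62, edgeR adjusted p = 0.0179), a call lost without DKO replicate 1 or WT replicate 1 (highest adjusted p = 0.0836). None of the 4 was called in Ing1-KO against WT, where Penk was highest. Over all genes, 13% were called in the libraries labelled DKO against WT and 4.15% in Ing1-KO against WT.

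In the neuropeptide Y system, the Y1 receptor was the main one read. Npy6r, a further receptor of the family, was at 1.77 ± 0.523 CPM in the libraries labelled DKO and 2.46 ± 0.556 CPM in WT, Npy2r was at 0.418 CPM in the libraries labelled DKO and 0.279 CPM in WT, Npy4r was at 0.142 CPM in the libraries labelled DKO and 0.193 CPM in WT, and Npy5r had 7 reads over the 12 libraries. The sister ligands Pyy and Ppy had 0 reads in all 12 libraries. Dpp4, a peptidase that trims neuropeptide Y, was at 0.569 ± 0.301 CPM in the libraries labelled DKO and 0.978 ± 0.0687 CPM in WT. None of the 4 genes tested was called in any comparison by edgeR, where at most 13% of all genes were called. The median log2 fold change of the 4 in the libraries labelled DKO against WT was -0.47.

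In the PACAP and VIP system, receptors were read without ligands. Adcyap1, which encodes PACAP, had 6 reads and Vip 14 over the 12 libraries. Vipr2, a receptor shared by PACAP and VIP, fell in the libraries labelled DKO, at 2.37, 2.01 and 3.09 CPM against 4.84, 3.97 and 4.06 CPM in WT (log2 fold change -0.78 ± 0.182, edgeR adjusted p = 0.0204), a call lost in 4 of 12 fits (up to adjusted p = 0.0938, without WT replicate 1). The third receptor, Vipr1, was at 2.76 ± 0.483 CPM in the libraries labelled DKO and 2.85 ± 0.259 CPM in WT (log2 fold change -0.04 ± 0.240, edgeR adjusted p = 0.935). Ramp1, which steers receptors of the calcitonin family to the cell surface, rose to 14.8 ± 2.64 CPM in the libraries labelled DKO against 10.2 ± 1.24 CPM in WT (0.55 ± 0.140, edgeR adjusted p = 0.0294), and that call was lost in 4 of 12 fits (up to adjusted p = 0.122, without WT replicate 1).

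Among neurotrophins and their receptors, 3 of 16 tested genes rose in the libraries labelled DKO against WT and 0 fell. Over all genes, 5.88% rose and 7.11% fell in the libraries labelled DKO. Ntrk3, the receptor tyrosine kinase TrkC, was at 11.7, 11.9 and 9.47 CPM there and 5.54, 6.37 and 6.47 CPM in WT (log2 fold change 0.85 ± 0.148, edgeR adjusted p = 0.0089, and 0.0528 without WT replicate 1). It also rose in Ing1-KO, at 9.96 ± 1.57 CPM against 6.13 ± 0.513 CPM in WT (0.70 ± 0.148, edgeR adjusted p = 0.0288), lost in 4 of 12 fits (up to 0.0994, without Ing1-KO replicate 2). Its ligand Ntf3, neurotrophin-3, rose to 2.14, 2.72 and 0.557 CPM in the libraries labelled DKO against 0.210, 0.347 and 0.498 CPM in WT (2.34 ± 0.560, edgeR adjusted p = 0.0244), lost in 5 of 12 fits (up to 0.105, without WT replicate 1). Bex3, an adaptor that binds p75NTR, rose by a log2 fold change of 0.33 ± 0.0654 (edgeR adjusted p = 0.0136), at 51.1 ± 3.80 CPM against 40.8 ± 2.08 CPM in WT, and the call was lost without WT replicate 1 or 3 (up to 0.0687).

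Bdnf, a neurotrophin ligand, had similar means in the 4 groups, at 14.0 CPM in the libraries labelled DKO, 14.9 CPM in those labelled Gadd45a-KO, 14.3 CPM in Ing1-KO and 14.1 CPM in WT. Sort1, or sortilin, the partner of p75NTR for uncut neurotrophins, was at 23.0 ± 3.58 CPM in the libraries labelled DKO and 46.4 ± 14.7 CPM in WT (log2 fold change -1.02 ± 0.335, edgeR adjusted p = 0.0738). Maged1, another p75NTR adaptor, was at 615 ± 6.75 CPM in the libraries labelled DKO and 625 ± 6.02 CPM in WT.

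The GDNF family is a separate group of neurotrophic ligands and receptors. Of 7 tested genes, 0 rose and 3 fell in the libraries labelled DKO against WT. Over all genes, 5.88% rose and 7.11% fell in the libraries labelled DKO. Gdnf was at 1.17, 0.949 and 1.40 CPM there and 3.02, 2.67 and 2.92 CPM in WT (log2 fold change -1.28 ± 0.160, edgeR adjusted p = 0.00233), a call that held in all 12 fits. Against the libraries labelled Gadd45a-KO its log2 fold change was -1.18 ± 0.160 (edgeR adjusted p = 0.0104, and up to 0.0809 without DKO replicate 1). Artn, artemin, fell by a log2 fold change of -0.97 ± 0.205 (edgeR adjusted p = 0.0159), lost in 3 of 12 fits (up to 0.0746, without WT replicate 1). In Ing1-KO, Gfra3, the artemin co-receptor, was at 0.0928 ± 0.0493 CPM against 0.516 ± 0.116 CPM in WT (-2.43 ± 0.361, edgeR adjusted p = 0.00749). The call held in all 12 fits, each with the filter. Gfra3 passed the filter on low counts only through other genotypes, which by itself favours a lower level in Ing1-KO. Its adjusted p-value is therefore no support for a lower level there.

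**Figure D5:**
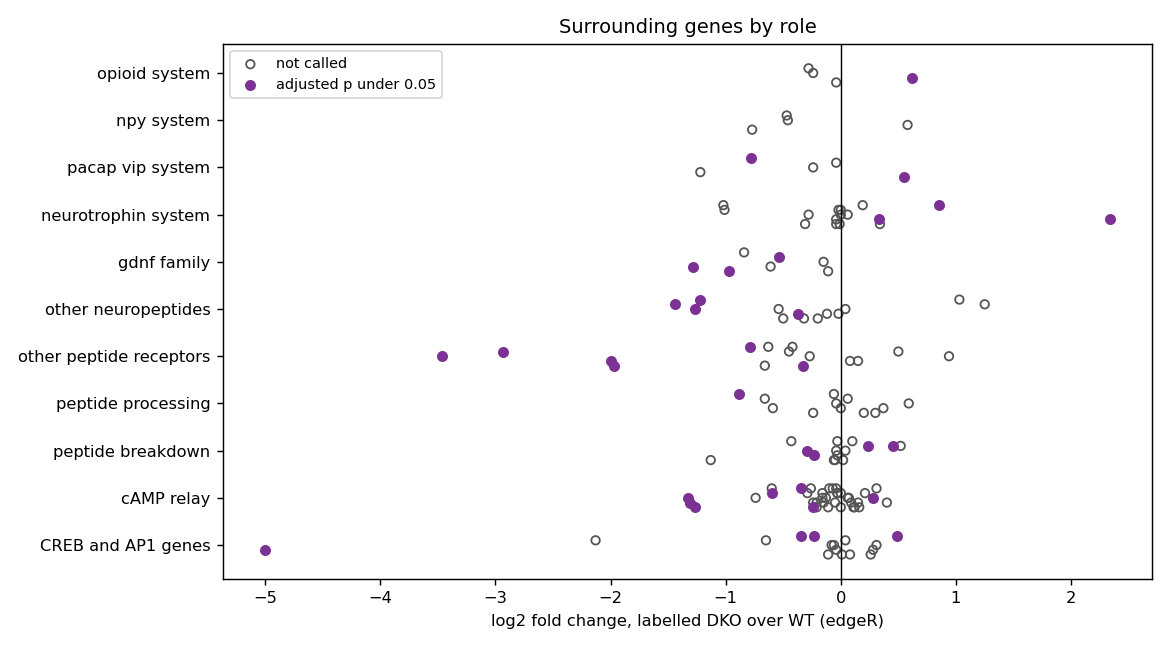
Log2 fold change in the libraries labelled DKO over WT (horizontal axis) of the tested genes of 11 lists, 1 list per row, with the members left out. Filled points passed edgeR's adjusted p of 0.05. Called genes lie on both sides of 0, with 26 lower and 9 higher over all lists. The 26 include Calca, Mc5r and Mc2r, which passed the filter on low counts only through other genotypes.

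Most other listed neuropeptides and receptors were too low to test, with 13 of 38 peptide genes and 15 of 37 receptor genes in the files tested. In the libraries labelled DKO against WT, 0 of the 13 rose and 4 fell, and 0 of the 15 rose and 6 fell. Over all genes, 5.88% rose and 7.11% fell in the libraries labelled DKO. Vgf, a granin-like precursor, was at 0.413 ± 0.134 CPM against 1.00 ± 0.134 CPM in WT (log2 fold change -1.27 ± 0.244, edgeR adjusted p = 0.0115), and Mc5r, a melanocortin receptor, at 0.0510 ± 0.00952 CPM against 0.409 ± 0.0360 CPM (-2.93 ± 0.525, edgeR adjusted p = 0.00959). Both calls held in all 12 fits, each with the filter. Mc2r, the ACTH receptor, which mouse fat cells express, was at 0.126 ± 0.0198 CPM against 1.39 ± 0.730 CPM in WT (-3.46 ± 0.779, edgeR adjusted p = 0.0202). That call was lost in 5 of 12 fits (up to 0.0793, without DKO replicate 1). Like Npy, the receptor genes Mc5r and Mc2r and the peptide gene Calca passed the filter on low counts only through other genotypes. This by itself favours a lower level in the libraries labelled DKO. Calca, 1 of the 4 peptide genes called, was at 0.181 ± 0.0801 CPM there and 0.499 ± 0.0381 CPM in WT. The adjusted p-values of these genes are therefore no support for a lower level there. The 6 receptor genes include Mc5r and Mc2r. Of the 213 listed genes, 16 had 0 reads in all 12 libraries, among them Avp, Crh, Cartpt and Grp.

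Of 12 tested genes for enzymes that cut and trim neuropeptide precursors, 0 rose and 1 fell in the libraries labelled DKO against WT, where 13% of all genes were called. In Ing1-KO against WT, where 4.15% of all genes were called, 1 rose and 1 fell. With the DKO label the convertase Pcsk5 fell, at 41.6 ± 7.03 CPM against 76.8 ± 6.85 CPM (log2 fold change -0.88 ± 0.180, edgeR adjusted p = 0.0161, and up to 0.0721 without DKO replicate 1). Pcsk5 also fell in Ing1-KO, at 39.9 ± 7.05 CPM (-0.94 ± 0.181, edgeR adjusted p = 0.0242, lost in 4 of 12 fits and up to 0.113). Cpe, the carboxypeptidase that trims enkephalins, rose in Ing1-KO to 301 ± 38.0 CPM against 206 ± 5.06 CPM in WT (0.55 ± 0.127, edgeR adjusted p = 0.0423), lost in 7 of 12 fits (up to 0.166, without Ing1-KO replicate 2). Among 16 tested peptidases 2 rose and 2 fell in the libraries labelled DKO, and Prcp, a lysosomal peptidase, was at 55.1 ± 2.35 CPM against 40.5 ± 1.28 CPM in WT (0.45 ± 0.0448, edgeR adjusted p = 0.00119 and at most 0.00797 over the 12 fits). In Ing1-KO against WT 3 of the 16 rose (Prcp, Enpep and Mme) and 1 fell (Ece1), where 4.15% of all genes were called. Enpep was at 3.11 ± 0.717 CPM against 1.28 ± 0.256 CPM (1.27 ± 0.207, edgeR adjusted p = 0.00993). The Ing1-KO calls on Prcp, Enpep and Ece1 were lost in 1, 3 and 4 of 12 fits.

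Downstream, the cAMP relay that the receptors of neuropeptide Y and PACAP act on was tested in full. In the libraries labelled DKO against WT, 1 of 37 genes was higher and 6 were lower, where 5.88% of all genes were higher and 7.11% lower. Gnao1, an inhibitory G protein subunit, fell to 11.3 ± 0.241 CPM against 17.2 ± 1.83 CPM in WT (log2 fold change -0.60 ± 0.0784, edgeR adjusted p = 0.00268), and Prkacb, a catalytic subunit of protein kinase A, rose to 177 ± 1.17 CPM against 146 ± 3.86 CPM (0.28 ± 0.0334, edgeR adjusted p = 0.00168). Both calls held in all 12 fits. Pde3b, the phosphodiesterase that carries insulin's action on lipolysis in fat cells, fell to 57.0 ± 11.5 CPM against 144 ± 19.7 CPM (-1.33 ± 0.236, edgeR adjusted p = 0.0108, and up to 0.054 without DKO replicate 1). Of 16 genes known to answer to CREB or AP-1, 1 rose and 3 fell. These were Rgs2, a brake on G protein signalling (0.49 ± 0.0832, edgeR adjusted p = 0.00827, kept in all 12 fits), and Nr4a2, Fosl2 and Pck1, with Pck1, which fat cells use for glyceride synthesis, at 1.32 ± 0.610 CPM against 42.8 ± 19.6 CPM in WT (-5.00 ± 0.905, edgeR adjusted p = 0.0112, and 0.0579 without DKO replicate 1).

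Genes whose log2 CPM over the 12 libraries was most like each member were found among 10467 genes, or 10468 for Npy, as a description with the genotype shared by all points. Penk was most like Itm2a (Pearson r = 0.982), the cartilage matrix gene Comp (0.979) and the Wnt agonist Rspo2 (0.971). Comp was at 5.59 ± 0.771 CPM in the libraries labelled DKO, 2.43 ± 0.491 CPM in those labelled Gadd45a-KO, 20.6 ± 12.7 CPM in Ing1-KO and 3.66 ± 0.835 CPM in WT, with its spread in Ing1-KO as in Penk. Nod1, a sensor of bacterial cell walls, led the lists of both Npy (0.921) and Adcyap1r1 (0.96). Npy1r was most like Hlcs (0.95), the enzyme that attaches biotin, and Ngfr most like Mmp15 (0.956), a membrane-bound matrix protease.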

How the data were processed

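Raw read counts for each Ensembl gene were deposited, made by the authors with TopHat2 2.0.9, Bowtie2 2.1.0 and HTSeq 0.5.4 on mm9, per the submitters' processing notes. Lines that name no gene took between 24.2% and 24.85% of each library and were left out. Symbols (32919 matched), exon lengths and distances came from a later mouse annotation, used without coordinates; promoters came from RefSeq. CPM used all gene reads scaled by TMM. Genotypes were compared in R 4.3.3 by edgeR 4.0.16, with filterByExpr (16163 genes kept), TMM scaling, a robust quasi-likelihood fit of 4 genotype means over 12 libraries, and Benjamini-Hochberg adjustment over all genes tested, with genes called at an adjusted p under 0.05. Replicates differed by more than sampling noise (chi-square per degree of freedom at least 6.039 in every pair). The upper limit given for Npy where no read was counted covers counting error only. SDs are between libraries, and SEs come from the edgeR fit.

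The members and the gene lists were chosen with earlier results of these data known. From each pathway list were named up to 4 called genes with the smallest adjusted p and the 3 of highest mean level, and from each marker list the 2 of highest level; others are values given to complete a system. Alternatives were DESeq2 1.42.0, limma-voom (limma 3.58.1), other scalings and filters, only the compared groups, a replicate block, and leaving out each library. A few genes of the lists are not reported here.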

Additional observations from a re-analysis of the deposited data

How the results depend on the processing

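Of the members' values, the sign turned where the fold change was small: Ngfr in the interaction was 0.0723 by limma-voom, and the fits without 1 library ran from -0.66 to 0.26 for that value, -0.79 to 0.13 for Ngfr between DKO and Ing1-KO labels, -0.55 to 0.0711 for Ngfr with the Gadd45a-KO label against WT, -1.22 to 0.0025 for Npy with the Gadd45a-KO label against WT, -0.37 to 0.0913 for Npy1r in Ing1-KO against WT and -0.85 to 0.0279 for Penk with the Gadd45a-KO label against WT. Ngfr in the libraries labelled DKO against WT passed with only these groups fitted (-1.15) and ran from -1.25 to -0.94 without 1 library. Npy, which the filter kept only through the other genotypes, was under the threshold by DESeq2 between DKO and Gadd45a-KO labels (-3.15) and in the interaction (-3.63), and without 1 library it ran from -4.78 to -2.82 for DKO against WT and -5.26 to -3.30 for DKO against Ing1-KO. The filter of a mean of at least 1 CPM removed Npy, so it has no value there. The cause of these changes was not tested.

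Counts of all genes called moved more. Between DKO and Gadd45a-KO labels the count of 192 was 289 with a mean of at least 1 CPM, 1253 by DESeq2, 431 with only these groups, and 6 to 600 without 1 library. Between DKO and Ing1-KO labels 1932 became 1183 with no low-count filter, 2924 by DESeq2, 1220 with only these groups, and 6 to 3179. For DKO against WT 2099 became 3160 with only these groups, and 299 to 2754 without 1 library. For the Gadd45a-KO label 2 became 1 with a mean of at least 1 CPM, 7 by DESeq2, and 2 to 23. For Ing1-KO 671 became 1256 by DESeq2, 398 with only these groups, and 96 to 1155. For the interaction 0 became 2 with no filter, 173 by DESeq2, and 0 to 191. Pathway genes called followed: 5 between DKO and Gadd45a-KO labels became 8 with a mean of at least 1 CPM, 22 by DESeq2, 12 with only these groups, and 0 to 14; 25 between DKO and Ing1-KO labels became 10 with only these groups, and 1 to 42; 35 for DKO against WT became 53 with only these groups, and 10 to 45; 12 for Ing1-KO became 20 by DESeq2, and 1 to 18; 0 for the interaction became 4 by DESeq2, and 0 to 6.

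No pairing by equal replicate number was seen in the deviations from the genotype means. They correlated at a median of -0.0223 over 18 same-numbered pairs (-0.445 to 0.464) and 0.00138 over 36 others (-0.674 to 0.644). With 3 libraries per genotype these medians cannot exclude a shared litter or day. With the replicate block, 92 genes were called between DKO and Gadd45a-KO labels against 192 without it, and 11 of the 63 calls on named pathway genes were lost. Without 1 library, between 0 (Gadd45a-KO replicate 1) and 43 (DKO replicate 1) of those calls were lost; DESeq2 lost 0 and limma-voom 7. Where a fit leaves 2 libraries in a genotype they are assumed to vary like the others.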
